A study of Mus musculus with 8 samples.

Results

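The genes of the NF-kB transcription factors and of their inhibitors were examined in the open chromatin of dendritic cells from mouse spleen. The group holds 10 genes, picked by name, with earlier results of these data known. The 5 factor genes are Nfkb1, Nfkb2, Rel, Rela and Relb, and the 5 inhibitor genes are Nfkbia, Nfkbie, Nfkbiz, Tnfaip3 and Bcl3. For each gene, every called summit within the gene span and 50 kb on both sides was taken, a stretch called the window here. Summits of different libraries that lay within 250 bp of each other were joined into sites. The 10 windows, of 21887 protein-coding genes, held 206 of the 112443 sites of the series. No site was assigned to a target gene, so a site in a window may belong to a neighbour.

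NF-kB factors wait in the cytoplasm of resting cells, held by inhibitor proteins. In the canonical pathway a kinase marks the inhibitor Nfkbia for destruction, and dimers of p50 (from Nfkb1) with Rela or Rel enter the nucleus, where they also turn on the genes of their own inhibitors. In the alternative pathway the Nfkb2 product is cut to p52, which pairs with Relb. In dendritic cells both pathways serve maturation, and mice without Relb lack a part of their splenic dendritic cells.

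Open chromatin was mapped by ATAC-seq, in which a transposase cuts accessible DNA, in type 2 (cDC2, sorted as XCR1-CD11b+) and type 1 (cDC1, XCR1+CD11b-) conventional dendritic cells. KO mice carried HDAC1 Mx1-Cre, in which an interferon-inducible promoter that is active in many cell types drives Cre against the floxed deacetylase gene Hdac1, and WT mice were HDAC1 floxed without Cre in the label. All mice of both genotypes had received poly I:C, a double-stranded RNA mimic that induces interferon and itself feeds NF-kB signalling, and were sampled 2 weeks later. The labels used here give no age, sex or strain. There were 2 libraries each of KO cDC2, WT cDC2, KO cDC1 and WT cDC1, and the labels do not say whether libraries of 1 group stem from different animals, so p-values cover only the spread among these 8 libraries.

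The data are lists of summits, each with a score from the peak caller but no read count. The lists held 61737 to 78296 summits in cDC2 and 74963 to 96031 in cDC1, and the read depth behind them is unknown. Each list was therefore shortened to its best 61737 summits, and a summit's strength was expressed as its percentile within the library, where 100 is the best score. Ranks of summits are compared below, not amounts of DNA. Summits within 5 kb of the cDC1 marker genes numbered 31 to 35 per library in cDC2 and 48 to 53 in cDC1, and those of the cDC2 markers 23 or 24 in cDC2 and 15 to 18 in cDC1. The cDC1 sum was carried mainly by Cadm1 (11 to 15 in cDC2, 23 to 27 in cDC1) and Cd8a (0 in cDC2, 3 to 6 in cDC1). The sort marker Xcr1 went the other way, with 2, 2, 2 and 1 summits in cDC2 and 1 in every cDC1 library. So did Clec9a, with 4 or 5 in cDC2 and 3 or 4 in cDC1, and Itgae, with 4 to 8 in cDC2 and 4 to 6 in cDC1. Batf3 had 2 to 4 in cDC2 and 3 or 4 in cDC1. Irf8 had 1 to 3 in cDC2 and 3 to 7 in cDC1, and Tlr3 2 or 3 in cDC2 and 3 or 4 in cDC1. Among the cDC2 markers Sirpa had 5 or 6 in cDC2 and 3 or 4 in cDC1, and Clec4a4 2 or 3 in cDC2 and 0 or 1 in cDC1. Irf4 had 3 to 6 in cDC2 and 3 or 4 in cDC1, and Clec10a 0 or 1 in cDC2 and 0 in cDC1. Itgam, the gene of the sort marker CD11b, had 5 to 7 in both subsets. Klf4 had 2 or 3 in both, and Cd209a 1 to 3 in cDC2 and 1 or 2 in cDC1. The 3 plasmacytoid dendritic cell markers, none of them at 0, had 27 to 30 summits in cDC2 and 19 to 26 in cDC1. Nearly all of this gap lay at Tcf4 (21 to 25 in cDC2, 14 to 21 in cDC1), while Spib had 3 or 4 in cDC2 and 3 in cDC1 and Siglech 2 in cDC2 and 2 or 3 in cDC1. Their part in the subset differences below was not tested. The lists of T cells, B cells, monocytes, granulocytes, NK cells and erythroid cells had between 2 and 15 summits per library, while Ncr1 of NK cells and Ly6g of granulocytes were at 0 in every library. The Hdac1 gene and 5 kb around it held 2 and 3 summits in KO cDC2, 3 and 4 in WT cDC2, 3 in each KO cDC1 library and 3 in each WT cDC1 library, and such counts cannot check the deletion.

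RefSeq promoters (GRCm38.p6, 250 bases before to 50 after the start) were given for 7 of the 10 members. A match to the kappa B consensus, the motif that NF-kB dimers bind, was found on either strand in the promoters of 6 of these 7 members and in 8 of their 10 promoter entries, against 4.51% of 32851 mouse promoters of the same length. The member without a match in this window was Rela. For each of the 7 members 1 promoter is shown, at a start where every library had a summit within 1 kb. The mean percentile lay between 65.0 (Bcl3) and 93.5 (Rel) at the 6 of these starts with 1 site in all 8 libraries. Each reads 5′ to 3′ on the gene's strand, and capitals mark the kappa B matches, of which overlapping ones run together.
Nfkb2: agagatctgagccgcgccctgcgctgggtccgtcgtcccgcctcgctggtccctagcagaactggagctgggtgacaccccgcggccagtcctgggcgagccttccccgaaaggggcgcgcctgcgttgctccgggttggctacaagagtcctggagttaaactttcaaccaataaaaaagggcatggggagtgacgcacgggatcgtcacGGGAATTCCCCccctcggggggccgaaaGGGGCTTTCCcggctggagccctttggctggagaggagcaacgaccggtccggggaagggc
Rel: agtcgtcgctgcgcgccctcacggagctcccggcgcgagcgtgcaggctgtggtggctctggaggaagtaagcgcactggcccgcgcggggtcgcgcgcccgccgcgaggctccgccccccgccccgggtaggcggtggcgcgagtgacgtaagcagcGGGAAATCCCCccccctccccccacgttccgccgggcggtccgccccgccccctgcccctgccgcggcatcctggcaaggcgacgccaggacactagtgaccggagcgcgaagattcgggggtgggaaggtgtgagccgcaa
Rela: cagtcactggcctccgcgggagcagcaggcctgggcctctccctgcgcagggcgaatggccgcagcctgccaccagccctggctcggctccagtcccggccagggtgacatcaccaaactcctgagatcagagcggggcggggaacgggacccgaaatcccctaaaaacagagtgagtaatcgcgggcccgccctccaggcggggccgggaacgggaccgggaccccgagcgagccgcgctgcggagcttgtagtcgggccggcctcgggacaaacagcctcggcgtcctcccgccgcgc
Nfkbia: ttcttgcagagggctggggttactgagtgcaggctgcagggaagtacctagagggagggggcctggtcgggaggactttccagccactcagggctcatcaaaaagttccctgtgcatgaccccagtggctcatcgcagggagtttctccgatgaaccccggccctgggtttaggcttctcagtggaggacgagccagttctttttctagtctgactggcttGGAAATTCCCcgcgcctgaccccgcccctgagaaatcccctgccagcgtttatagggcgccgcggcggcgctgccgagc
Nfkbie: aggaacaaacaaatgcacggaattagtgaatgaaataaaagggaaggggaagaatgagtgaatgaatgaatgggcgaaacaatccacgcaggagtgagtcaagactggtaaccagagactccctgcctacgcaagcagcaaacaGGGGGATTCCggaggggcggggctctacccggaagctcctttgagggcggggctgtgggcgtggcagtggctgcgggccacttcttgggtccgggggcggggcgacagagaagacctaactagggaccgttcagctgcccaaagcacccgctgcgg
Tnfaip3: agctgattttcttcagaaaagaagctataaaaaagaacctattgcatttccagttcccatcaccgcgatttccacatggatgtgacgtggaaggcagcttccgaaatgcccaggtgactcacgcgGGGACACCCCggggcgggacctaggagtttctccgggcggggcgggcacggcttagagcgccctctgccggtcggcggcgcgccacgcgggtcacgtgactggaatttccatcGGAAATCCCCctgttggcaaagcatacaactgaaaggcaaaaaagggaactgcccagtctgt
Bcl3: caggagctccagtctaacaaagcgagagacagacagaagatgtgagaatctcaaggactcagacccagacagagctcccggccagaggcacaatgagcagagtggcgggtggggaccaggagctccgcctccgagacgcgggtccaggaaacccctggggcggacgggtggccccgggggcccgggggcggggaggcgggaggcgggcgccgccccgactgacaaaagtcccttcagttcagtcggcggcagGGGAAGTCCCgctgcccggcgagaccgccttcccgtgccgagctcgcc
They lie at chr19:46304487-46304786 (+) for Nfkb2, chr11:23770920-23771219 (-) for Rel, chr19:5637291-5637590 (+) for Rela, chr12:55492598-55492897 (-) for Nfkbia, chr17:45555450-45555749 (+) for Nfkbie, chr10:19015361-19015660 (-) for Tnfaip3 and chr7:19822706-19823005 (-) for Bcl3. The first bases of the matches stand at -39, -38 and -11 from the start in Nfkb2, at -92 and -91 in Rel, at -29 in Nfkbia, at -106 in Nfkbie, at -125 and -12 in Tnfaip3, and at 2 in Bcl3. The AP-1 motif TGANTCA occurred in promoters of Nfkb2, Nfkbie and Tnfaip3, which is 3 of 10 entries against 7.81% of all promoters. The CRE half-site TGACG occurred in 4 of 10 entries against 20.8%, the PU.1 core GAGGAA in 1 of 10 against 28.3%, and the core of the IRF motif in 0 of 10 against 3.44%. These matches are descriptions of letters, and some entries of Nfkb2 overlap and share a match.

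Open chromatin in the windows of the NF-kB genes was widely shared by the subsets, but unevenly between windows. Of the 206 sites 85 (41.3%) had a summit in all 8 libraries, against 26.4% of all sites and 27.4% of the 99149 sites within 50 kb of any protein-coding gene. Another 33 sites were seen in 1 library only, a count for which the share of all sites was not computed. Rela kept 9 of 11 sites in all libraries and Relb 11 of 16, in windows with 5 and 8 other protein-coding genes. Nfkbia kept 4 of 18 (22.2%) and Tnfaip3 5 of 20 (25%), below the background, in windows with 0 other protein-coding genes. Of the windows with 1 such neighbour, Nfkb1 kept 29.4%, Rel 47.1% and Nfkbiz 50%. Of the 33 member sites at the start of another gene, 19 were in all 8 libraries. The background was not matched for nearness to gene starts. The mean Jaccard overlap of member sites, shared sites over sites found in either, was 0.639 between libraries of different subsets, against 0.753 within a group and 0.756 within a subset across genotypes. Over all sites these values were 0.518 across subsets, against 0.673 and 0.659.

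In the number of summits per window, cDC2 and cDC1 differed most at Nfkb1 and Nfkbiz, and neither difference passed the test. Nfkb1, whose product p105 is cut to p50, had 22 and 22 summits in KO cDC2 and 17 and 21 in WT cDC2, against 14 and 15 in KO cDC1 and 16 and 15 in WT cDC1. Every cDC2 library stood above every cDC1 library. The means were 20.5 ± 2.38 in cDC2 and 15.0 ± 0.816 in cDC1 (SD, n = 4 each), a difference of 0.42 in log2(summits + 1) (SE 0.123, limma adjusted p = 0.0513). Nfkbiz, whose product is an inhibitor-like partner of p50 in the nucleus, had 18 and 17 summits in KO cDC2 and 17 in each WT cDC2 library, against 13 in every cDC1 library. The groups again did not overlap, and the log2 difference was 0.38 (SE 0.114, limma adjusted p = 0.0551). Of all windows, 6.12% had every cDC2 library above every cDC1 library and 7.03% the reverse.

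Bcl3, an inhibitor-family protein that binds p50 and p52 dimers in the nucleus, had 16 and 20 summits in KO cDC2 and 21 and 20 in WT cDC2, against 18 and 17 in KO cDC1 and 13 and 14 in WT cDC1. These overlapped through 1 KO cDC2 library, and the log2 difference was 0.30 (SE 0.125, limma adjusted p = 0.145). The log2 differences of the other members lay between -0.22 at Rel and 0.20 at Relb, with adjusted p from 0.325 upwards, and all 7 changed sign in at least 1 alternative. In total 0 of 10 member windows were called, against 11.8% of the 17728 windows tested with limma at an adjusted p under 0.05. At an unadjusted p under 0.05 there were 3 of 10, against 28.3% of all windows. Other settings called up to 3 member windows. Nfkb1 passed with 20 kb in place of 50 kb (log2 difference 0.50, adjusted p = 0.0451) and without WT cDC2 replicate 1 (log2 difference 0.49, adjusted p = 0.0455), and Nfkb1 and Nfkbiz both passed among windows with a mean of at least 3 summits. The Nfkb1 difference was smaller with all deposited summits (log2 difference 0.21, adjusted p = 0.477) and with the best 30868 summits of each list (log2 difference 0.13, adjusted p = 0.613).

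Over the 10 windows together there were 144 and 146 summits in KO cDC2 and 139 and 140 in WT cDC2, against 126 and 127 in KO cDC1 and 128 and 124 in WT cDC1. The subsets did not overlap in the lists of equal length, with 142 ± 3.30 summits in cDC2 and 126 ± 1.71 in cDC1 (SD, n = 4 each). With all deposited summits they did, at 153 ± 13.9 in cDC2 and 152 ± 17.6 in cDC1. The median window of all protein-coding genes held 6 summits in every library.

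**Figure D1:**
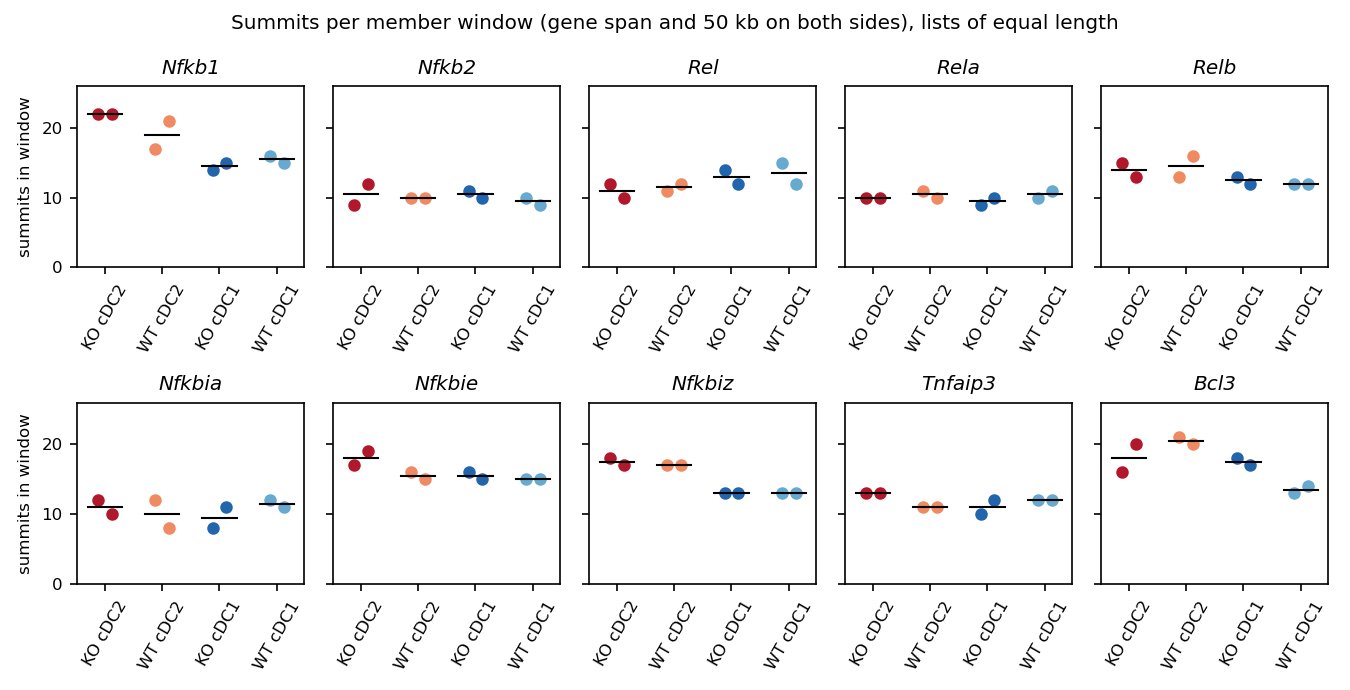
Summits in each of the 10 member windows, from lists of equal length. Points are libraries (2 per group), bars are group means, and the vertical axis is the number of summits. The cDC2 points of Nfkb1 (17 to 22) and Nfkbiz (17 and 18) lie above all cDC1 points of the same gene (14 to 16, and 13).

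At single sites the subsets differed in both directions. Of the 85 member sites with a summit in every library 30 (35.3%) differed in percentile between cDC2 and cDC1, against 25.6% of the 29645 such sites of the series. Of these 13 ranked higher in cDC2 (background 13.9%) and 17 lower (background 11.7%). All 10 members had at least 1 called site, among 4 to 11 tested sites each. The share of all windows with a called site was not computed, so this count has no background. The factor genes had 6 higher and 12 lower among 43 sites, and the inhibitor genes 7 higher and 5 lower among 42. Of the 30 called sites 11 were called under every alternative in which they could be tested, and 19 lost the call in at least 1. The count depended on single libraries and on the variance model. It was 15 of 87 without WT cDC1 replicate 1, against 15.7% of all sites in that fit, and 18 of 88 without WT cDC2 replicate 2, against 18.3%. Without the variance trend, called sites in the windows of Nfkb1, Nfkb2, Rela, Relb, Nfkbie, Tnfaip3 and Bcl3 lost their call. Over all sites the calls then fell from 7602 to 4320.

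Near gene starts every called member site ranked lower in cDC2, and farther away both directions occurred. Within 1 kb of a RefSeq gene start there were 27 member sites in all 8 libraries, of which 0 ranked higher and 9 (33.3%) lower in cDC2. Only starts with a promoter entry were counted, so the own starts of Nfkb1, Relb and Nfkbiz were not. Of the 5 sites at the ends of these genes 4 were in all 8 libraries, and 0 were called. Over all sites near a start the background was 7.44% higher and 14.4% lower. Among the 58 member sites farther from a start 13 (22.4%) ranked higher and 8 (13.8%) lower, with a background of 16.6% higher and 10.6% lower. Of the 9 lower sites near a start 8 stood at the starts of neighbouring genes and 1 at a member's own start, that of Nfkb2. Of these 9 only the sites at the starts of Mfsd13a and Clptm1 were called under every alternative. Those at the starts of Gm35399, Map3k11, Clasrp and Nfkb2 each lost the call in 6 of the 8 fits without a library. Without the variance trend these sites, and those at the starts of 2310034G01Rik and Zfp296, lost it as well. Sites of 1 window are neighbours on the chromosome and not independent of each other.

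**Figure D2:**
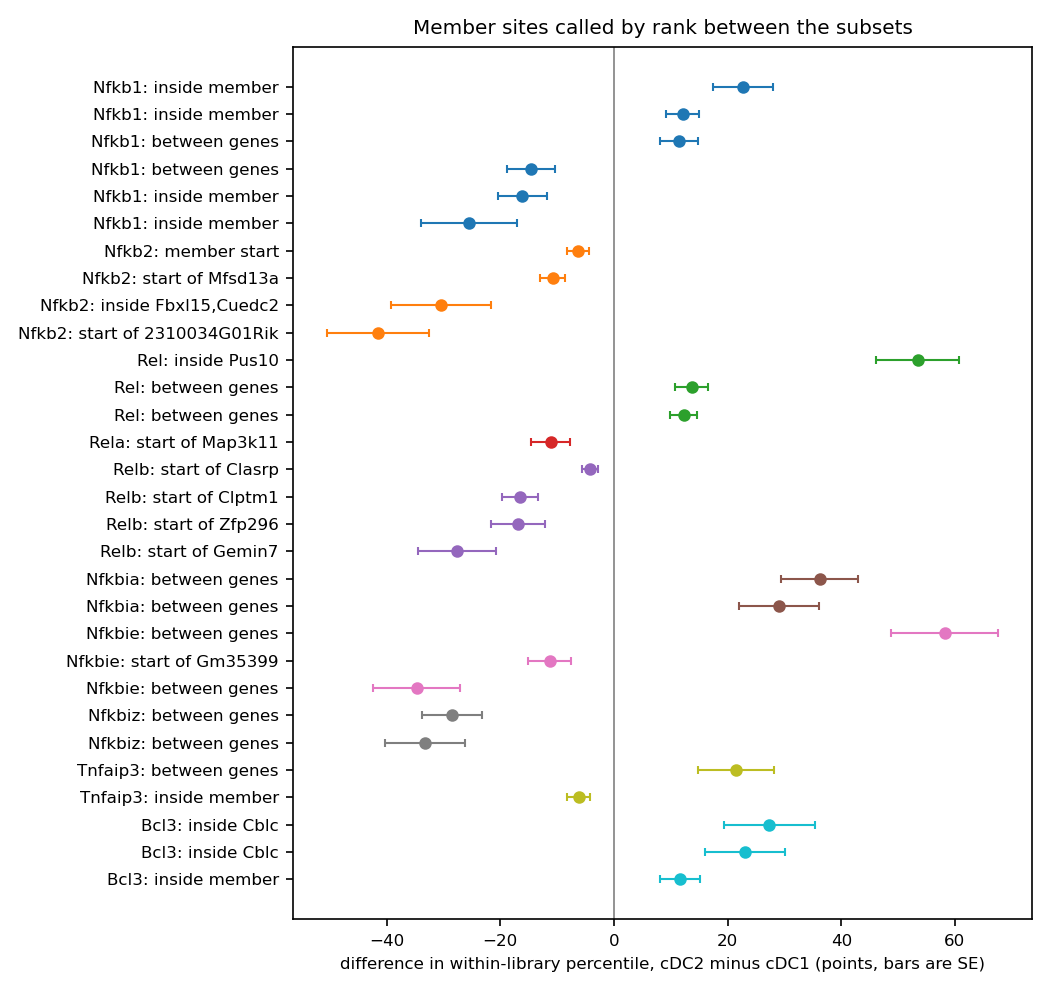
The 30 member sites whose rank differed between the subsets, grouped by member. Points are the difference in mean percentile, cDC2 minus cDC1, in points, with SE bars, and the labels give the place of the site. The largest differences are 58.2 points beside Nfkbie and 53.4 points in the Rel window on the higher side, and -41.5 points in the Nfkb2 window on the lower side.

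At Nfkb1, the gene of p50 and its precursor p105 (chr3:135584655-135691969), sites that ranked higher and lower in cDC2 lay side by side, some of them only kilobases apart. The strand of Nfkb1, Relb and Nfkbiz is not given in the tables used here, so their ends are called by coordinate. The site near the upper end of Nfkb1, at chr3:135691322-135691461, had percentiles of 81.8 and 81.5 in KO cDC2 and 67.4 and 90.4 in WT cDC2, against 87.9 and 83.5 in KO cDC1 and 76.7 and 83.3 in WT cDC1, and these overlapped (limma adjusted p = 0.701). Inside the gene, chr3:135628837-135629052 had 83.4 and 74.9 in KO cDC2 and 87.5 and 88.3 in WT cDC2, against 65.2 and 49.8 in KO cDC1 and 66.8 and 61.7 in WT cDC1. All cDC2 libraries ranked it above all cDC1 libraries, by 22.7 points (SE 5.24, limma adjusted p = 0.00906), and it was called under every alternative. The site chr3:135594365-135594469, the best-ranked one of the window, reached 85.4 to 94.2 in cDC2 and 73.5 to 80.6 in cDC1, a difference of 12.1 points (SE 2.89, adjusted p = 0.0104, and 10.3 points without WT cDC2 replicate 2, adjusted p = 0.0555).

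Less than 3 kb from the last of these, chr3:135597073-135597196 went the other way. It had 19.4 and 17.6 in KO cDC2 and 36.6 and 41.6 in WT cDC2, against 33.1 and 57.3 in KO cDC1 and 64.5 and 62.0 in WT cDC1. The difference of -25.4 points (SE 8.45, limma adjusted p = 0.0429) came with overlapping libraries and was lost in every fit without a library but that without KO cDC1 replicate 1 (range -31.5 to -19.4 points). Another 3 sites were called. The site chr3:135637774-135637861 inside the gene ranked 52.9 to 81.5 in cDC2 and 80.6 to 90.4 in cDC1, a difference of -16.2 points (SE 4.32, adjusted p = 0.0173) that was lost without WT cDC2 replicate 2 (-14.5), KO cDC1 replicate 1 (-15.9) or WT cDC1 replicate 1 (-14.7). Above the gene, the site at 28.1 kb differed by -14.6 points (adjusted p = 0.0236), lost without WT cDC2 replicate 2 (-11.5), KO cDC1 replicate 1 (-11.2), WT cDC1 replicate 1 (-13.9) or WT cDC1 replicate 2 (-15.4). The site at 39.5 kb differed by 11.5 points (adjusted p = 0.0239), and it kept its call in the fits without KO cDC2 replicate 1, KO cDC1 replicate 1 and WT cDC1 replicate 2 alone (range over all such fits 10.1 to 12.8), and not with all deposited summits (6.98).

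The subsets also had sites of their own at Nfkb1. A pair of neighbouring sites inside the gene, 499 bp apart, had a summit in every cDC2 library and in no cDC1 library. The first, chr3:135602323-135602409, had percentiles of 46.7 and 37.8 in KO cDC2 and 48.0 and 42.8 in WT cDC2, and the second, chr3:135602908-135602966, had 50.6 and 32.4 in KO cDC2 and 62.3 and 74.8 in WT cDC2. In the lists of equal length the nearest cDC1 summits lay 5.1 and 5.4 kb away. Among all deposited summits 1 cDC1 library had a summit at the second site. Conversely, chr3:135556484-135556566 inside the neighbour Manba had no cDC2 summit within 8.9 kb in the lists of equal length. Its percentiles were 50.3 and 48.4 in KO cDC1 and 61.8 and 52.7 in WT cDC1. A weaker cDC1 site, chr3:135666162-135666338 inside Nfkb1, ranged between 8.03 and 44.9.

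**Figure D3:**
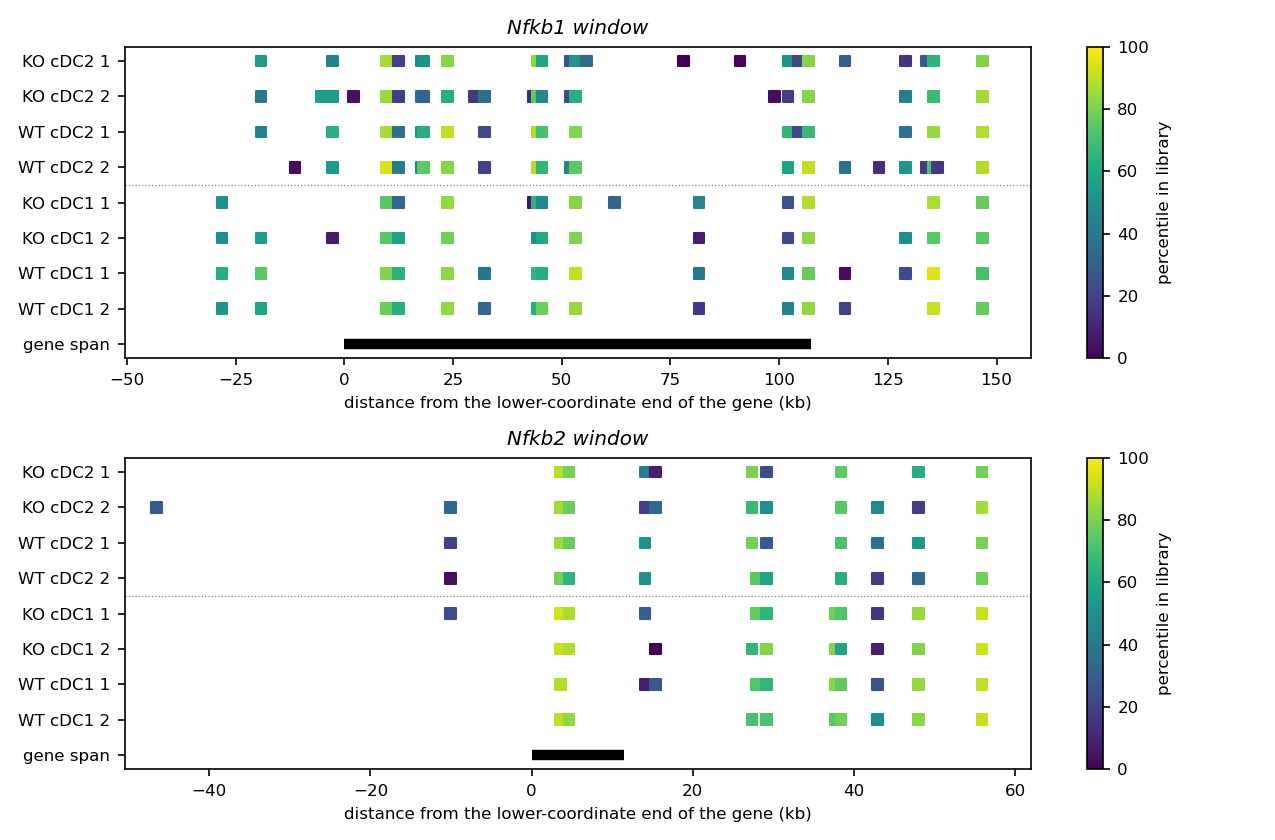
Sites in the windows of Nfkb1 and Nfkb2 by library, placed by distance in kb from the lower-coordinate end of the gene, with the gene span in black and the colour giving the percentile in the library. In the Nfkb1 window cDC2 libraries hold 17 to 22 summits and cDC1 libraries 14 to 16. In the Nfkb2 window the 2 sites at the starts of 2310034G01Rik and Mfsd13a, near the right-hand end, have percentiles of 17.8 to 86.3 in cDC2 and 81.2 to 92.2 in cDC1.

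Rel encodes c-Rel, the factor that dendritic cells use for cytokine genes such as Il12b, and its window (gene at chr11:23736847-23770969, minus strand) held the second largest rank difference of the group. The start itself was among the best-ranked member sites, with 92.3 and 90.3 in KO cDC2 and 96.6 and 93.5 in WT cDC2, against 95.0 and 92.8 in KO cDC1 and 94.0 and 93.6 in WT cDC1 (chr11:23770890-23771382). The subsets overlapped there, with a difference of -0.66 points (SE 1.10, limma adjusted p = 0.69).

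All 3 called sites of Rel lay away from the start, ranked higher in cDC2 with no overlap, and were called under every alternative in which they could be tested. At chr11:23699650-23700027, inside the neighbour Pus10 and 37.0 kb beyond the far end of Rel, the percentile was 74.3 and 78.2 in KO cDC2 and 70.6 and 78.9 in WT cDC2, against 20.2 and 28.5 in KO cDC1 and 24.9 and 14.8 in WT cDC1. The difference was 53.4 points (SE 7.34, limma adjusted p = 0.000868). At chr11:23778885-23778925, 7.9 kb upstream of the start, cDC2 libraries had 95.9, 94.2, 92.7 and 91.1, against 77.0, 86.5, 78.3 and 83.1 in cDC1 (KO libraries first in each). The difference there was 12.3 points (SE 2.31, adjusted p = 0.00343). At chr11:23805908-23806019, 35.0 kb upstream, it was 13.7 points (SE 2.85, adjusted p = 0.0056). A site found in cDC1 alone lay inside the gene at chr11:23753339-23753423, with 55.0 and 77.1 in KO cDC1 and 39.1 and 71.4 in WT cDC1, but cDC2 had a summit 1023 bp away, in a neighbouring site shared by all libraries.

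Rela, the gene of p65 (chr19:5637442-5648134), had 9 of its 11 sites in every library. Its start at chr19:5637330-5637622 had 86.7 and 84.4 in KO cDC2 and 83.9 and 84.9 in WT cDC2, against 92.1 and 82.6 in KO cDC1 and 88.3 and 84.7 in WT cDC1. These overlapped, at -1.93 points (SE 2.45, limma adjusted p = 0.592). No site of the window was found in every library of 1 subset and none of the other. Its best-ranked site stood at the start of Sipa1 (chr19:5663692-5663766), with 80.6 to 94.3 in cDC2 and 86.0 to 93.6 in cDC1. The 1 called site, at the start of the kinase gene Map3k11 41.5 kb downstream (chr19:5689613-5689702), ranked 65.9 to 82.1 in cDC2 and 80.4 to 91.1 in cDC1. The difference of -11.2 points (SE 3.46, adjusted p = 0.0328) was lost in every fit without a library but those without WT cDC2 replicate 1 and WT cDC1 replicate 2 (range -13.5 to -8.84 points).

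The windows of the alternative-pathway genes Nfkb2 and Relb held 8 called sites, all lower in cDC2. They were 4 of 5 tested sites at Nfkb2 and 4 of 11 at Relb. No comparison by pathway was planned, and this pairing was not tested. Of the 8 called sites 6 stood at starts of other genes, 1 inside neighbours and 1 at a member's own start. Sites near any start were called lower (14.4%) more often than higher (7.44%) in the series as a whole. At Nfkb2, the gene of p100 and p52 (chr19:46300994-46312400), all 4 called sites were lower in cDC2. Its start at chr19:46304553-46304649 was the only called member start, with 89.1 and 85.6 in KO cDC2 and 85.7 and 79.2 in WT cDC2, against 93.1 and 92.1 in KO cDC1 and 89.0 and 90.5 in WT cDC1. The subsets overlapped through 1 KO cDC2 and 1 WT cDC1 library, and the difference of -6.29 points (SE 1.94, limma adjusted p = 0.0317) was lost in every fit without a library but those without KO cDC2 replicate 1 and WT cDC2 replicate 1 (range -7.91 to -4.67 points). A summit at a second Nfkb2 start, chr19:46305562-46305682, was present in 7 of 8 libraries, at 64.9 to 79.1 in cDC2 and 83.6 to 87.9 in the 3 cDC1 libraries that had it.

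The larger differences of the Nfkb2 window lay at its neighbours. At the start of 2310034G01Rik (chr19:46348912-46349054) the percentile was 62.6 and 17.8 in KO cDC2 and 53.5 and 33.2 in WT cDC2, against 84.7 and 81.2 in KO cDC1 and 84.6 and 82.6 in WT cDC1. All cDC2 libraries ranked below all cDC1 libraries, by -41.5 points (SE 8.97, limma adjusted p = 0.00663, and adjusted p = 0.0608 without the variance trend). The start of Mfsd13a (chr19:46356826-46356971) had 78.4 to 86.3 in cDC2 and 90.5 to 92.2 in cDC1, a difference of -10.8 points (SE 2.25, adjusted p = 0.00561) that was called under every alternative. A site inside Fbxl15 and Cuedc2, at chr19:46330093-46330163, differed by -30.4 points (SE 8.76, adjusted p = 0.024) and lost its call without KO cDC2 replicate 1 (-24.1), WT cDC2 replicate 1 (-22.8), KO cDC1 replicate 2 (-26.4), WT cDC1 replicate 1 (-31.9) or WT cDC1 replicate 2 (-29.0). The start of Cuedc2 carried a strong site found in cDC1 alone, chr19:46338690-46338764, with 78.5 and 81.6 in KO cDC1 and 82.4 and 73.3 in WT cDC1. The nearest cDC2 summit lay 558 bp from it, in a site shared by all libraries.

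Relb, the partner of p52 (chr7:19606217-19629438) also had its called sites at neighbours and none at its own ends. The site at its upper end, chr7:19628631-19628764, was the second best-ranked of all member sites in 8 libraries, with 94.1 and 97.2 in KO cDC2 and 97.4 and 96.2 in WT cDC2, against 94.1 and 98.0 in KO cDC1 and 97.7 and 95.0 in WT cDC1. The means were 96.2 ± 1.48 in cDC2 and 96.2 ± 1.94 in cDC1 (SD, n = 4 each), a difference of 0.03 points (SE 1.05). All 4 called sites were at starts of neighbours and lower in cDC2. The start of Clptm1 (chr7:19664983-19665100) had 77.6 and 71.0 in KO cDC2 and 75.1 and 69.8 in WT cDC2, against 93.0 and 86.3 in KO cDC1 and 90.3 and 89.9 in WT cDC1, without overlap. The difference of -16.5 points (SE 3.18, limma adjusted p = 0.00381) was called under every alternative.

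The start of Gemin7 (chr7:19573065-19573475) differed by -27.7 points (SE 6.83, limma adjusted p = 0.0121, and -23.8 points with adjusted p = 0.0654 without WT cDC1 replicate 1). The start of Zfp296 (chr7:19578131-19578219) differed by -16.9 points (SE 4.78, adjusted p = 0.0221). It lost its call in each fit without a cDC1 library (-17.3 to -16.6), and over all fits without a library the difference ranged from -22.0 to -11.8. At the start of Clasrp (chr7:19604487-19604495), 1.7 kb below the Relb span, the difference was -4.24 points (SE 1.37, adjusted p = 0.0379), and it was lost in every fit without a library but those without KO cDC2 replicate 1 and WT cDC2 replicate 1 (range -5.43 to -3.06). A site inside Clasrp found in cDC1 alone (chr7:19589470-19589479, percentiles 45.1 to 64.6) lay 537 bp from cDC2 summits of the next site.

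Nfkbia encodes the inhibitor IkB alpha, itself a classical NF-kB target. Its window (gene at chr12:55489409-55492647, minus strand) contains no other protein-coding gene. At the start, where the promoter holds the kappa B match GGAAATTCCC, the summit fell into 1 of 2 neighbouring sites 409 bp apart. The site over the start, chr12:55492625-55492782, had 91.0 in 1 KO cDC2 library, 89.5 and 88.7 in WT cDC2, 81.2 in 1 KO cDC1 library and 85.1 in 1 WT cDC1 library. The site inside the gene, chr12:55491979-55492216, had 83.3, 81.9 and 80.7 in the remaining KO cDC2, KO cDC1 and WT cDC1 libraries, so every library had exactly 1 of them. Neither could be tested by rank.

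Both called sites of Nfkbia lay in the intergenic stretches and ranked higher in cDC2. At chr12:55514207-55514240, 21.6 kb upstream, the percentile was 81.7 and 66.2 in KO cDC2 and 78.5 and 85.1 in WT cDC2, against 41.2 and 29.1 in KO cDC1 and 52.6 and 43.6 in WT cDC1. The groups stood apart by 36.2 points (SE 6.77, limma adjusted p = 0.00329), and the site was called under every alternative. At chr12:55446850-55447280, 42.3 kb below the gene, it was 65.0 and 74.3 in KO cDC2 and 65.7 and 55.8 in WT cDC2, against 49.7 and 50.9 in KO cDC1 and 21.8 and 22.1 in WT cDC1. The difference of 29.1 points (SE 7.07, adjusted p = 0.0114) became 17.7 points with all deposited summits (adjusted p = 0.083). In the lists of equal length a cDC2-only site 17.6 kb upstream (chr12:55510235-55510276, percentiles 5.63 to 52.4) stood 3.9 kb from a cDC1 summit. Among all deposited summits 2 cDC1 libraries had a summit at this site. A cDC1-only site 40.7 kb upstream (chr12:55533336-55533382, percentiles 17.4 to 45.4) had no cDC2 summit within 19.1 kb in the lists of equal length.

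Nfkbie encodes the slower-acting inhibitor IkB epsilon, and the largest rank difference of the whole group stood just upstream of it (gene at chr17:45555700-45563169, plus strand). At chr17:45554593-45554635, 1086 bp before the start, the percentile was 76.2 and 67.6 in KO cDC2 and 89.5 and 80.8 in WT cDC2, against 25.0 and 9.04 in KO cDC1 and 2.86 and 44.3 in WT cDC1. Every cDC2 library lay in the upper part of its list and every cDC1 library in the lower. The means were 78.5 ± 9.13 in cDC2 and 20.3 ± 18.5 in cDC1 (SD, n = 4 each), 58.2 points apart (SE 9.45, limma adjusted p = 0.00172), and the site was called under every alternative. The Nfkbie start itself, over the printed promoter at chr17:45555615-45555788, leaned the other way without passing. It had 74.2 and 70.2 in KO cDC2 and 65.1 and 72.9 in WT cDC2, against 89.5 and 83.6 in KO cDC1 and 78.8 and 73.6 in WT cDC1, a difference of -10.8 points (SE 4.25, adjusted p = 0.0792).

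Farther from Nfkbie, an intergenic site at chr17:45582958-45583066, 19.8 kb above the gene, ranked lower in cDC2. It had 21.1 and 26.2 in KO cDC2 and 48.4 and 38.7 in WT cDC2, against 74.0 and 53.9 in KO cDC1 and 77.9 and 67.4 in WT cDC1. The groups did not overlap, and the difference of -34.7 points (SE 7.64, limma adjusted p = 0.00722) was called under every alternative. At the start of Gm35399 (chr17:45573240-45573318) the difference was -11.3 points (SE 3.77, adjusted p = 0.0438), lost in every fit without a library but those without KO cDC2 replicate 2 and WT cDC2 replicate 1 (range -13.4 to -9.19). The best-ranked site of the window, at the start of Slc35b2 (chr17:45563831-45563908), reached 84.3 to 87.9 in cDC2 and 86.0 to 91.5 in cDC1 and was not called.

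Nfkbiz encodes IkB zeta, which acts in the nucleus on late NF-kB genes such as Il6. A site inside the gene (chr16:55822150-55822217) was the best-ranked of all member sites, with 95.6 and 94.6 in KO cDC2 and 94.7 and 96.7 in WT cDC2, against 97.3 and 96.1 in KO cDC1 and 97.7 and 97.2 in WT cDC1. The libraries overlapped, at -1.63 points (SE 0.771, limma adjusted p = 0.136). The sites at the 2 gene ends overlapped too, and the one at the upper end (chr16:55838794-55838940) had 73.3 to 81.0 in cDC2 and 70.2 to 85.2 in cDC1. Although cDC2 had more summits in this window, both called sites ranked lower in cDC2, and both were called under every alternative in which they could be tested.

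The first, chr16:55788821-55789202, lay 22.4 kb below the gene and had 57.7 and 33.6 in KO cDC2 and 36.4 and 49.9 in WT cDC2, against 79.7 and 75.1 in KO cDC1 and 75.8 and 79.9 in WT cDC1, a difference of -33.2 points (SE 7.08, limma adjusted p = 0.00623). The second, chr16:55776511-55776589, lay 34.8 kb below the gene and had 45.4 and 41.8 in KO cDC2 and 71.3 and 63.5 in WT cDC2, against 88.1 and 80.4 in KO cDC1 and 85.9 and 81.5 in WT cDC1, a difference of -28.4 points (SE 5.23, adjusted p = 0.00312). In neither did the subsets overlap. A cDC2-only site at chr16:55787850-55787978 (percentiles 13.3 to 49.8) lay 1.2 kb from the first of them, where all libraries had a summit.

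Tnfaip3 encodes A20, a ubiquitin-editing enzyme that ends NF-kB signalling, and neither of its 2 called sites kept its call in every fit. Its start (chr10:19015231-19015466), the best-ranked site of the window, had 85.2 and 89.7 in KO cDC2 and 87.9 and 89.2 in WT cDC2, against 85.6 and 87.5 in KO cDC1 and 90.4 and 93.3 in WT cDC1. These overlapped, at -1.20 points (SE 1.74, limma adjusted p = 0.644). A site inside the gene (chr10:19009577-19009644) was lower in cDC2 by -6.20 points (SE 2.03, adjusted p = 0.0408), which was lost in every fit without a library but that without WT cDC2 replicate 2 (range -8.30 to -4.11). A site 35.9 kb below the gene (chr10:18964959-18965073), beyond its far end, had 67.1 to 80.4 in cDC2 and 42.0 to 60.7 in cDC1. Its difference of 21.4 points (SE 6.71, adjusted p = 0.034) was lost without KO cDC2 replicate 2 (18.1), WT cDC2 replicate 1 (19.9), WT cDC2 replicate 2 (23.0), KO cDC1 replicate 1 (18.5) or WT cDC1 replicate 1 (17.8), and with all deposited summits (12.6). A cDC2-only site 32.1 kb upstream (chr10:19047444-19047609) had 48.8 and 47.5 in KO cDC2 and 59.8 and 34.1 in WT cDC2, with a cDC1 summit 1.3 kb away, in a site of 1 library.

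In the window of Bcl3 (chr7:19808462-19822824, minus strand) all 3 called sites ranked higher in cDC2, and none kept its call in every fit. The start (chr7:19822768-19822834) was modest in rank, with 72.9 and 57.8 in KO cDC2 and 65.9 and 60.5 in WT cDC2, against 79.8 and 71.5 in KO cDC1 and 60.6 and 51.3 in WT cDC1, and the subsets overlapped. A site inside the neighbour Cblc (chr7:19789999-19790227) had 51.0 and 55.0 in KO cDC2 and 53.4 and 66.9 in WT cDC2, against 30.9 and 31.5 in KO cDC1 and 22.1 and 32.2 in WT cDC1. The difference was 27.4 points (SE 7.95, limma adjusted p = 0.0249). A second site inside Cblc (chr7:19786016-19786135) differed by 23.0 points (SE 7.08, adjusted p = 0.0315), and a site inside Bcl3 (chr7:19817588-19817620) by 11.6 points (SE 3.46, adjusted p = 0.0272). With all deposited summits these differences were 15.6, 13.8 and 6.95 points and did not pass. Over the fits without a library they ranged from 24.0 to 30.7, 17.9 to 28.2 and 9.55 to 13.7 points. The first kept its call without WT cDC2 replicate 1, KO cDC1 replicate 2 or WT cDC1 replicate 2 and lost it without each other library, and the second kept it without WT cDC2 replicate 2, KO cDC1 replicate 1 or WT cDC1 replicate 2. The third lost it without KO cDC2 replicate 1 (10.7), WT cDC2 replicate 2 (10.2), KO cDC1 replicate 2 (9.55) or WT cDC1 replicate 1 (10.4). The best-ranked site of the window lay inside Ceacam16 (chr7:19871329-19871448), with 79.5 to 86.5 in cDC2 and 81.1 to 91.4 in cDC1.

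**Figure D4:**
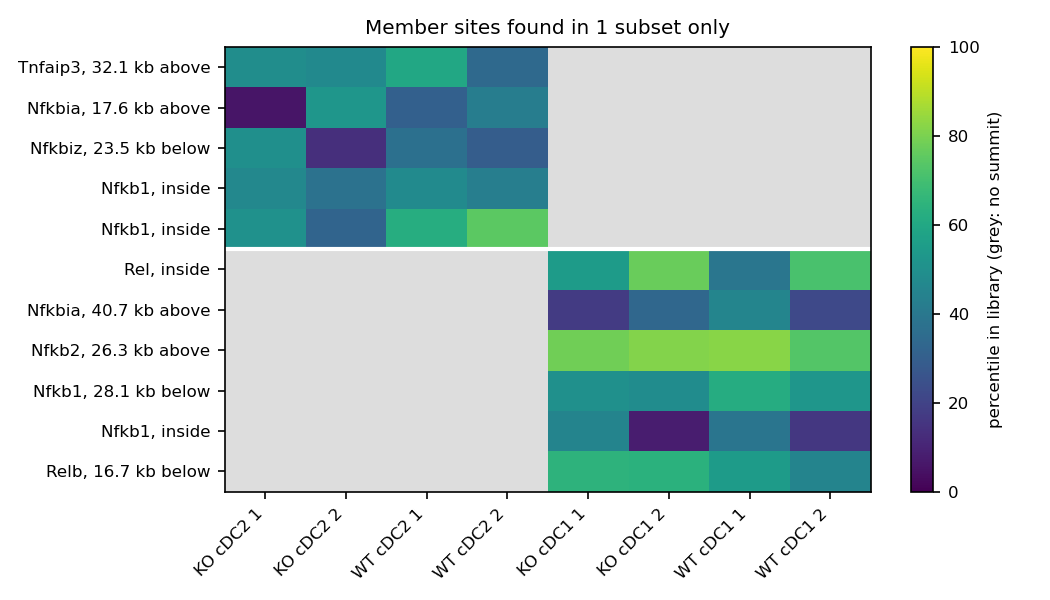
The 11 member sites with a summit in every library of one subset and in no library of the other. Colour is the percentile in the library, grey is no summit, and the labels give the member and the distance outside its gene span towards lower (below) or higher (above) coordinates. The highest percentiles are those of the cDC1-only site in the Nfkb2 window, 73.3 to 82.4.

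In all, 5 member sites were found in every cDC2 library and no cDC1 library, which is 2.43% of 206 against 2.42% of all sites, and 6 in every cDC1 library and no cDC2 library, 2.91% against 4.33%. These shares are near the background, and 4 libraries against 4 cannot give a single site an exact two-sided permutation p below 0.0286. Of the 5 cDC2-only sites, those of Tnfaip3 and Nfkbia and the second of Nfkb1 had a summit in 1 or 2 cDC1 libraries among all deposited summits. Of the 6 cDC1-only sites only that of Rel had one in cDC2, in 1 library. The deposited lists held 74963 to 96031 summits in cDC1 and 61737 to 78296 in cDC2, so shortening in general removed more from cDC1 lists. This check was therefore not equally strict for both kinds of site. All distances given above to the nearest summit of the other subset are those in the lists of equal length.

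The study also compared HDAC1 Mx1-Cre with floxed mice, which addresses the role of Hdac1 in the chromatin of these cells. By number of summits 0 of 10 member windows were called for KO minus WT, over both subsets (background 0%), in cDC2 (0.00564%) and in cDC1 (0.0169%), and 0 for the difference between the 2 genotype effects (0%). With limma the count at an unadjusted p under 0.05 was 0 of 10 in each of these contrasts. Of all windows 7.10% passed it over both subsets, 5.87% in cDC2, 5.51% in cDC1 and 4.16% for the difference of effects. At such shares 0 of 10 cannot set the members apart from other windows. No alternative called a member window. The log2 differences over both subsets ran from -0.10 at Rela to 0.12 at Nfkbie, with standard errors of 0.114 to 0.160. The largest within 1 subset was 0.35 at Bcl3 in cDC1 (SE 0.176, adjusted p = 0.955), where KO libraries had 18 and 17 summits and WT libraries 13 and 14. These did not overlap, but 2 libraries against 2 cannot give an exact two-sided permutation p below 0.333. The share of all windows without overlap within cDC1 was not computed. In cDC2 Bcl3 had 16 and 20 summits in KO and 21 and 20 in WT. Over all 10 windows KO libraries had 136 ± 10.7 and WT libraries 133 ± 7.97 summits (SD, n = 4 each) in the lists of equal length, and 162 ± 15.6 and 143 ± 3.20 among all deposited summits, of which KO lists held 69025 to 96031 and WT lists 61737 to 77585. Of all windows, 0.869% had KO and WT libraries that did not overlap over both subsets, and no member was among them.

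Sites gave no genotype call either. In rank, 0 of 85 member sites were called by limma in each of the 4 genotype contrasts, as were 0% of all 29645 sites. At an unadjusted p under 0.05 there were 11 of 85 over both subsets (12.9%, against 11.9% of all sites), 8 in cDC2 (9.41%, against 8.34%), 5 in cDC1 (5.88%, against 8.29%) and 1 for the difference of effects (1.18%, against 4.89%). These shares lie near the background, and the smallest adjusted p was 0.269. Of the 11 over both subsets, 5 were among the 10 tested sites of the Nfkb1 window, all lower in KO, by -24.4 to -12.4 points with adjusted p of 0.318 to 0.399, a set noticed after the values were seen. The widest, chr3:135686662-135686773 inside Nfkb1, averaged 29.4 ± 15.8 in KO and 53.8 ± 9.82 in WT (SD, n = 4 each). The smallest adjusted p belonged to the start of Gm34891 beside Bcl3 (chr7:19830795-19831005), with 82.1 and 73.0 in KO cDC2, 53.3 and 57.4 in WT cDC2, 60.1 and 76.0 in KO cDC1 and 39.0 and 46.8 in WT cDC1. Within each subset the KO libraries ranked above the WT libraries there, by 23.7 points over both (SE 6.53).

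The largest differences within 1 subset were wide but uncertain. In cDC1, a site 28.7 kb upstream of Tnfaip3 (chr10:19044005-19044139) had 66.0 and 77.0 in KO and 55.4 and 9.13 in WT, a difference of 39.3 points (SE 13.0, limma adjusted p = 0.433) that rests on 1 low WT library. In cDC2, a site inside Pus10 in the Rel window (chr11:23727626-23727770) had 15.7 and 23.6 in KO and 56.3 and 54.3 in WT, a difference of -35.6 points (SE 14.3, adjusted p = 0.536). A p above the threshold does not show that the genotypes were alike.

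Presence gave the same picture. No member site was found in every KO library and no WT library (background 0.0836%), nor the reverse (0.0694%). Within cDC2, 4 sites were found in both KO libraries and neither WT library, 1 each in the windows of Nfkb2, Nfkbia, Nfkbie and Relb (1.94% of 206, against 2.32%), and 3 showed the reverse, in the windows of Bcl3 and Relb (1.46%, against 1.92%). Within cDC1 the counts were 0 for KO (0%, against 2.17%) and 3 for WT, in the windows of Nfkb1 and Nfkbie (1.46%, against 2.28%). The 4 KO cDC2 sites were weak, with percentiles of 4.27 to 33.2.

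**Figure D5:**
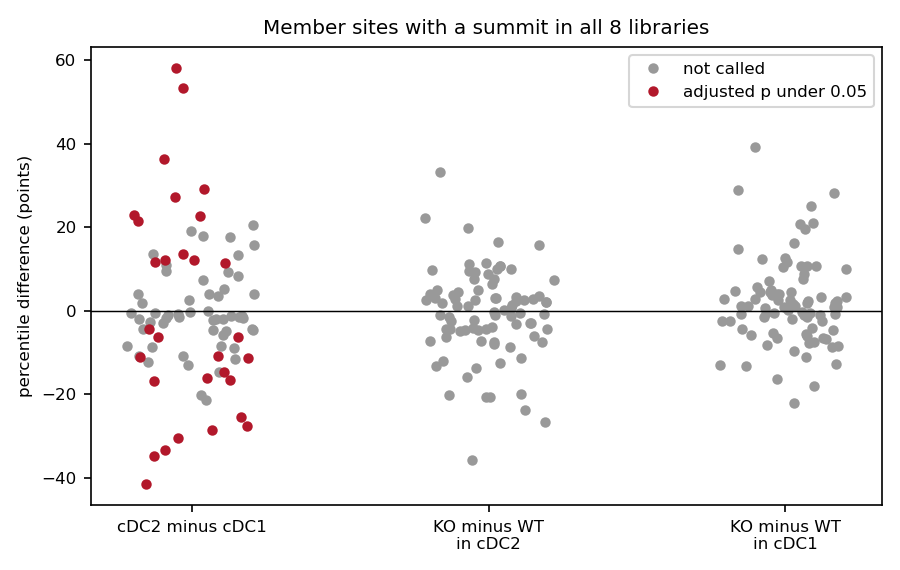
Differences in percentile of the 85 member sites with a summit in all 8 libraries, for cDC2 minus cDC1 and for KO minus WT in cDC2 and in cDC1. Each point is a site, the vertical axis is in points, and red marks an adjusted p under 0.05. The subset contrast has 30 red points between -41.5 and 58.2, and neither genotype contrast has any.

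Other genes of the pathway were read from 4 lists in the same fit of windows, for cDC2 minus cDC1. Of 30 kinase and signalling genes 4 had more summits in cDC2 and 0 fewer (median log2 difference 0.10, against 0 over all windows), a share near the 11.8% of all windows called in either direction. Malt1 and Bcl10, which pair in the complex that carries receptor signals to the kinase, had log2 differences of 0.49 each, with an adjusted p from limma of 0.0274 for Malt1 (SE 0.121) and 0.0449 for Bcl10 (SE 0.137). Malt1 had 16 and 14 summits in KO cDC2 and 15 and 17 in WT cDC2, against 10 and 10 in KO cDC1 and 11 and 12 in WT cDC1, without overlap. Tab2 and Tab3, adaptors of the kinase Map3k7, had log2 differences of 0.81 for Tab2 (SE 0.150, adjusted p = 0.00861) and 1.06 for Tab3 (SE 0.177, adjusted p = 0.00536), and Tab3 had 4, 3, 2 and 4 summits in cDC2 and 1 in every cDC1 library.

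Among 15 further inhibitors and ubiquitin regulators 0 were called (median -0.05). Among 16 receptors 1 had fewer summits in cDC2, the double-stranded RNA sensor Tlr3, which the cDC1 marker list also holds, with 7 and 7 in KO cDC2 and 9 and 9 in WT cDC2, against 14 and 12 in KO cDC1 and 10 and 12 in WT cDC1 (-0.53, SE 0.124, limma adjusted p = 0.022). Among 20 tested target genes of 21 listed, 1 had fewer, the cytokine gene Il6, with 6 in every cDC2 library, against 9 and 7 in KO cDC1 and 11 and 10 in WT cDC1 (-0.53, SE 0.127, adjusted p = 0.0232). Both counts lie below the 11.8% of all windows called. The medians of the receptors and targets were -0.0050 and -0.13. In the genotype contrasts 0 genes of the 4 lists were called.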

How the data were processed

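ATAC-seq summit lists of 8 libraries from sorted spleen dendritic cells were used, 2 for each subset and genotype. The authors deposited one BED list per library, and per the submitters' processing notes the reads were handled with Bowtie2, SAMtools and MACS2 on GRCm38 (mm10), with no versions given. The score column of the deposited lists holds a −log10 value, taken as −log10 of the q-value because its lowest entry in each library lay just above 1.30, between 1.302 and 1.360. The lists hold no reads, so the depth is unknown and no counting interval can be given.

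Each list was cut to its best 61737 summits, and scores were turned into percentiles within the library. Summits of any library chained within 250 bp made a site. Gene spans and promoters came from RefSeq tables (GRCm38.p6), which gave no exons, so exonic and intronic positions are not separated. Summits per window (gene span plus 50 kb on both sides) were tested with limma 3.58.1 in R 4.3.3 on log2(summits + 1), for the 17728 windows with a mean of at least 1 summit, with a rounding variance of 0.0833 added, and fold changes on this scale understate changes of low counts. Percentiles were tested with limma and a variance trend at the 29645 sites with a summit in all 8 libraries. Both fits had 4 group means and 5 contrasts, namely cDC2 minus cDC1, KO minus WT, KO minus WT in cDC1 and in cDC2, and the difference of those effects. Tests were two-sided, with Benjamini-Hochberg adjustment over all windows or sites and a threshold of 0.05. The scripts were tested on simulated data, and Python 3.11.15, pandas 2.3.3, numpy 2.4.6 and matplotlib 3.10.9 were used.

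Named sites were those at a member's start, the best-ranked site of each window, those found in every library of 1 subset or genotype only, and those called by rank. Where a member had more than 4 called sites, the others are also given. Members and gene lists were chosen with earlier results of these data known. Alternatives were other list lengths, windows, filters, site definitions and variance models, a replicate block, and leaving out each library.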

Additional observations from a re-analysis of the deposited data

How the results depend on the processing

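The subset count of 0 called member windows became 1 with 20 kb flanks (Nfkb1), 2 with a mean of at least 3 summits, 2 without the rounding variance (Nfkb1 and Nfkbiz in both), 3 with variance trend and robust moderation (Bcl3 as well), and 0 to 1 without each library, 1 of them without WT cDC2 replicate 1. The 30 called sites became 14 of 49 with 20 kb flanks and 48 of 134 among sites in at least 4 libraries with absent summits at percentile 0. Leaving out each library gave 15 to 26, with 18 without WT cDC2 replicate 2 and 15 without WT cDC1 replicate 1. Over all sites the 7602 calls became 4320 without the variance trend, 22404 among 61978 sites in at least 4 libraries and 4794 without WT cDC1 replicate 1. The 5 cDC2-only sites became 3 with the best 30868 summits of each list, 3 with 20 kb flanks and 5 to 9 without each library. The 6 cDC1-only sites became 2, 3 and 6 to 9, and the 0 WT-only sites 0 to 1. For the 30 called sites 375 values in alternatives kept their call and 100, at 19 sites, lost it, none with a change of sign.

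Of the 10 windows 7 changed sign, none of them called,. Nfkb2 became -0.12 with all deposited summits, -0.33 with the best 30868 and -0.066 to 0.12 without each library. Rel became 0.10 with the best 30868, Rela -0.060 with all deposited summits and -0.11 with the best 30868, and Relb -0.21 with the best 30868 and -0.14 with 20 kb. Nfkbia became 0.49 with the best 30868, 0.31 with 20 kb and -0.14 to 0.13 without each library. Nfkbie became -0.028 with all deposited summits, -0.13 with the best 30868, -0.066 with 5 kb and -0.038 with 20 kb. Tnfaip3 became -0.10 with all deposited summits, -0.27 with 20 kb and -0.0043 to 0.12 without each library. The causes were not tested.

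In the 4 genotype contrasts the member counts were 0 under every alternative run. Over all windows these ranged from 0 to 26 for KO minus WT, 0 to 17 in cDC1, 0 to 27 in cDC2 and 0 to 85 for the difference of effects, and over all sites from 0 to 26, 0 to 9, 0 to 78 and 0 to 24. Same-numbered libraries did not deviate together (correlations 0.0453 for WT and 0.0354 for KO between subsets, 0.00388 in cDC1 and 0.0644 in cDC2 between genotypes). With the numbers as a replicate block the subset fit called 0 member windows and 2959 of all, 33 member sites and 8964 of all, and 85 of all windows for the difference of effects. With 2 libraries per group and no read depth, weak sites near the end of a list can be missed in 1 library, which limits every count of sites found in 1 subset only.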
